A study of Homo sapiens with 17 samples.

Results

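The libraries described here came from HEK293 cells, an established human embryonic kidney line, that had been electroporated with dCas9 ribonucleoproteins and were harvested 36 h or 72 h later. dCas9 is a catalytically inactive Cas9: with its single guide RNA (sgRNA) it still binds DNA at the matching site, but it does not cut. In all of the groups the guide was sgIntron, which matches intron 12 of JAK2, a tyrosine kinase gene, so dCas9 cells are the no-cut control of the study. Of the 17 libraries of the series, 8 were dCas9 libraries of these time points and all of them were used: mRNA replicates d and e and footprint replicates d and e at 36 h, and mRNA replicates a and b and footprint replicates e and f at 72 h. Each library type was compared apart, at 72 h against 36 h. The time points differed in more than time. At 36 h the guide was bought as synthetic RNA and at 72 h it was transcribed in vitro, and the methods of the study give hisat2 with GENCODE 22 at 36 h and tophat with GENCODE 25 at 72 h. No group holds a mixture of these, so time, guide type, aligner and annotation cannot be told apart. Each replicate was a pool of 4 small electroporations grown in a single plate, and the p-values measure the spread between such pools, with 2 libraries for each time point and library type.

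Ribosome profiling sequences the short stretches of mRNA that a ribosome shields from nuclease (footprints), and mRNA-seq of the same lysate measures how much of each transcript there is. The footprints of a gene divided by its mRNA give its translational efficiency, which is commonly read as how densely ribosomes occupy the message. HEK293 cells grow fast and carry adenovirus genes. In cells that were electroporated and not cut, the comparison asks what the control itself does between the time points. Cells can sense the 5′ triphosphate of RNA transcribed in vitro through RIG-I, which induces interferon genes. Levels are given as CPM, counts scaled to a common library size with the TMM factors of edgeR, and differences as log2 of 72 h over 36 h with their SE. A gene was called when its adjusted p (edgeR's quasi-likelihood test, Benjamini-Hochberg over all 10444 tested genes) was at most 0.1. In bulk libraries, fewer cells of a kind and less RNA per cell cannot be told apart.

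Because a footprint is about 30 bases long, each gene's coding sequence was also scanned for 30-base windows that occur elsewhere in the genome or on an alternate contig of the hg38 build. The sequences below are examples of such shared stretches. Whether shared sequence changed how reads were assigned was not tested. HSPA6 and HSPA2 encode inducible and testis-enriched relatives of the major heat shock protein Hsp70, which HSPA1A encodes, and PPIAL4H is a retrotransposed copy of PPIA, the gene of cyclophilin A, an abundant prolyl isomerase. Each pair of coding stretches of 60 bases is aligned without gaps, with the bases that differ in capitals. The HSPA6 stretch is at chr1:161524993-161525052 on the plus strand, beside HSPA1A at chr6:31816085-31816144 on the plus strand. The HSPA2 stretch is at chr14:64540954-64541013 on the plus strand, beside HSPA1A at chr6:31815858-31815917. The PPIAL4H stretch is at chr1:146344532-146344591 on the minus strand, beside PPIA at chr7:44799416-44799475 on the plus strand.
HSPA6: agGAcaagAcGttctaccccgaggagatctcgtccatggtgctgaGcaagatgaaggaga
HSPA1A: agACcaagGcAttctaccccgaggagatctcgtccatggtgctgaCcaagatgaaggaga
HSPA2: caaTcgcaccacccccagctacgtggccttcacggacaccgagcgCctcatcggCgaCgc
HSPA1A: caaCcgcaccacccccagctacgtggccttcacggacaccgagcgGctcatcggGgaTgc
PPIAL4H: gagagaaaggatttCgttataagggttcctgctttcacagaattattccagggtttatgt
PPIA: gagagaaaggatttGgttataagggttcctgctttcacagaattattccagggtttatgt
The HSPA6 and HSPA1A stretches differ at 5 bases and share a run of 34, and those of HSPA2 and HSPA1A differ at 4 bases and share a run of 41. The PPIAL4H and PPIA stretches differ at 1 base, and over the whole coding sequences the longest run that both genes share is 69 bases. A read from inside such a run cannot be assigned to either gene by its sequence.

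The depth over the transcripts kept was 24593547 to 29475247 counts in the mRNA libraries of 36 h and 33694810 to 41993361 in those of 72 h. Footprint libraries were shallower and unequal, with 4837781 counts in replicate d and 684584 in replicate e at 36 h, and 6621719 and 8717390 counts at 72 h. Replicates differed by a median of 0.18 (log2) in mRNA at both time points, by 0.52 in footprints at 36 h and by 0.13 in footprints at 72 h, so the footprint comparison was limited by its 36 h libraries. The summed level of 10 markers of HEK293 cells was 1590 to 1640 CPM at 36 h and 1220 to 1370 CPM at 72 h in mRNA. In footprints it was 3120 to 3520 CPM at 36 h and 2550 to 2610 CPM at 72 h. Blood markers summed to 2.16 CPM or less in every mRNA library, with HBB, CD3E and PPBP at 0. Endothelial markers summed to 2.07 CPM or less there, and all 5 hepatocyte markers were at 0 in the footprints of 36 h. The 7 fibroblast markers summed to 16.2 to 22.9 CPM at 36 h and 14.6 to 15.2 CPM at 72 h in mRNA. Their footprints summed to 21.9 to 27.8 CPM at 36 h and 24.8 to 34.2 CPM at 72 h. JAK2 itself was not among the tested genes because its footprints averaged under 20 counts, with no more than 23 in any library. Its mRNA had 140 and 232 counts at 36 h and 231 and 472 at 72 h.

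Many mRNAs and few footprint counts differed between the time points. In mRNA, 2024 of the 10444 tested genes (19.4%) passed the test, 1240 of them (11.9%) higher and 784 (7.51%) lower at 72 h, and 170 (1.63%) by at least 1 on the log2 scale. In footprints, 33 genes (0.316%) passed, 31 (0.297%) higher and 2 (0.0191%) lower, and 24 (0.23%) by at least 1. In translational efficiency, the difference of the footprint and mRNA changes, 33 genes (0.316%) passed, 25 (0.239%) higher and 8 (0.0766%) lower, and 27 (0.259%) by at least 1. The size of a typical difference was similar in both library types: the median absolute log2 difference was 0.25 in mRNA and 0.29 in footprints. The 2 library types moved together only loosely. Across the 10444 genes, which are not independent replicates, Spearman's rho of the mRNA and footprint differences was 0.33 (Pearson's r 0.31), and 62.5% of genes had the same sign. Of the 2024 mRNA calls, 1532 (75.7%) had the same sign in footprints, and 20 genes were called in both types, which is 0.988% of the mRNA calls and 60.6% of the footprint calls. Of these 20, 14 (0.134% of tested genes) moved in the same direction and 6 (0.0574%) in opposite directions.

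**Figure D1:**
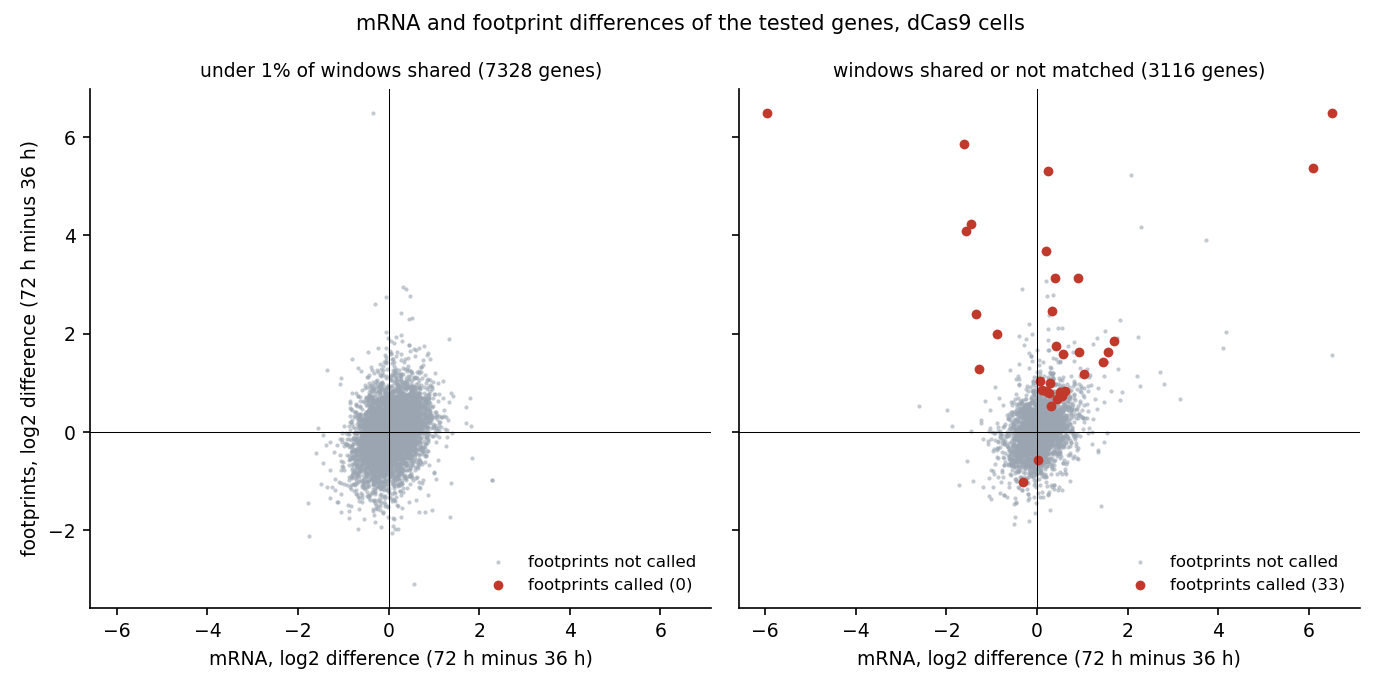
Each point is 1 of the 10444 tested genes, with its mRNA difference (log2, 72 h minus 36 h) on the x axis and its footprint difference on the y axis. Points beyond 6.5 are drawn at the edge. Of the 33 genes called in footprints 24 differ by at least 1 on the y axis, while others such as UBB (-0.56) lie inside the cloud, and 14 of the 33 were called in mRNA in the same direction and 6 in the opposite one.

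The Cas9 libraries of the same time points are other cultures that carry the same change of guide type, aligner and annotation. Of the 2024 dCas9 mRNA calls, 1966 (97.1%) had the same sign there and 1691 (83.5%) were also called, where 5410 genes (51.8%) were called in all and 76.3% of all genes had the same sign. All 33 footprint calls had the same sign in the Cas9 libraries and 32 were also called, against 201 genes (1.92%) called there in all. Of the 33 calls in translational efficiency, 32 had the same sign and 29 were also called, against 1343 genes (12.9%) called there in all. Spearman's rho of the dCas9 and Cas9 differences across genes was 0.71 in mRNA, 0.37 in footprints and 0.31 in translational efficiency. Whether any of these differences was larger in dCas9 than in Cas9 cells was not tested.

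Sequence sharing separated the footprint calls from the rest. The matched place of a gene may overlap that of another gene, which was not counted as sharing. Of the tested genes, 7328 shared under 1% of their windows with another place, and none of the 33 footprint calls was among them. With edgeR 580 of those 7328 genes had an unadjusted p under 0.05, and DESeq2, which called 173 genes, called 52 of them. Among the 524 genes with at least 50% of windows at another place in the genome, 9 (1.72%) were called in footprints, and among the 322 with at least 50% on an alternate contig, 20 (6.21%). The remaining 4 calls were among the 2245 genes in between (0.178%). Of the 33 calls in translational efficiency, 27 (81.8%) had at least 1% of their windows elsewhere, as did 29.6% of all tested genes. The mRNA calls, whose reads are of 50 bases, did not divide in this way: 629 of 2024 (31.1%) had at least 1% of their windows elsewhere, and 1390 of the 7328 genes with under 1% (19.0%) were called. Of the 33 footprint calls, 6 (HSPA6, PPIAL4H, HLA-F, HLA-G, NBPF20 and ENSG00000273269) averaged under 20 counts at 36 h and entered the test only through their 72 h libraries, so they could be called only as higher.

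**Figure D2:**
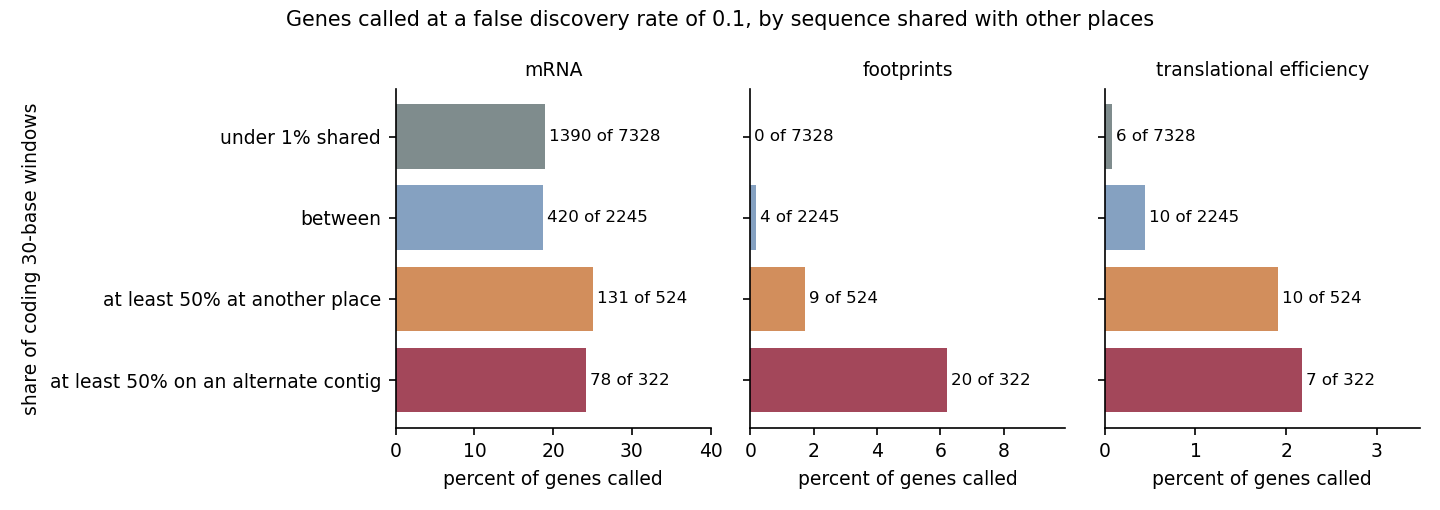
The bars give the percent of genes called in mRNA, footprints and translational efficiency (x axes, from 0). Genes are in classes by the share of their 30-base coding windows that occur elsewhere (y axis). The mRNA share stays between 18.7% and 25% in the 4 classes plotted, while the footprint share goes from 0% to 6.21%.

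Relatives of the Hsp70 gene gave the largest footprint difference among the called genes that had counts in every library. HSPA6, on chromosome 1 with a single coding exon, is silent in most unstressed cells. Its footprints were 2.42 and 1.48 CPM at 36 h and 141 and 127 CPM at 72 h, and its mRNA was 0.717 and 2.07 CPM at 36 h and 0.362 and 0.538 CPM at 72 h. The footprint levels did not overlap between the time points, as in 49.1% of all genes, and the mRNA levels did not move with them. The footprint difference was 5.85 ± 0.28 (SE, adjusted p = 0.0044, edgeR) and that of translational efficiency 7.46 ± 0.66. HSPA6 averaged under 20 footprint counts at 36 h and entered the test only through its 72 h footprints. It could thus be called only as higher in footprints. HSPA2 had 25.6 and 17.8 CPM of footprints at 36 h and 223 and 194 CPM at 72 h, a difference of 3.14 ± 0.21, while its mRNA was 12.2 and 11.6 CPM at 36 h and 16.3 and 15.2 CPM at 72 h. HSPA1L, which lies beside HSPA1A on chromosome 6, differed by 1.01 in footprints and also passed. HSPA1A itself did not pass, with a footprint difference of -0.15 and an mRNA difference of 0.02. Only 1.59% of the HSPA2 windows are found at another place, beside 70.6% of those of HSPA6. With HSPA1A itself HSPA2 shares 1.11% of its windows and HSPA6 0.263%, so most of the share of HSPA6 lies at places other than HSPA1A. Among 17 tested heat shock chaperone genes, a list that holds Hsp90 and its helpers, 0 passed in footprints, beside 0.316% of all genes. In mRNA 0 were higher and 5 lower (29.4%), beside 19.4% called of all genes. The median differences were -0.02 in mRNA and -0.03 in footprints. HSP90AA1, the inducible Hsp90, had 2694 and 2724 CPM of mRNA at 36 h and 1506 and 2123 CPM at 72 h, a difference of -0.58 ± 0.14 (edgeR adjusted p = 0.0013). BAG3, an Hsp70 co-chaperone, fell from 57.7 and 66.4 CPM to 40.9 and 34.4 CPM. The called members of the chaperone list were thus lower at 72 h in mRNA, while the Hsp70 relatives named above were higher in footprints.

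ACTA2, the gene of smooth muscle actin, showed the same opposition. Its footprints were 18.6 and 22.2 CPM at 36 h and 116 and 90.2 CPM at 72 h (2.4 ± 0.24), and its mRNA was 4.18 and 4.11 CPM at 36 h and 1.72 and 1.52 CPM at 72 h (-1.36 ± 0.47). Both differences passed, in opposite directions. Of its windows 2.03% occur at another place, among them a shared run of 35 bases with ACTC1, the cardiac actin gene. The POTE genes, primate copies that end in an actin-like part, had 532 to 837 CPM of footprints at 36 h and 759 to 797 CPM at 72 h over the 4 tested members. In mRNA, POTEF went from 23.5 and 19.9 CPM to 3.87 and 3.25 CPM, and the difference in its translational efficiency was 3.11 ± 0.19. The footprints of the 4 POTE genes thus lay closer together at 72 h than at 36 h.

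The PPIAL4 genes, copies of PPIA on chromosome 1, were called higher in footprints in all 6 members that reached the minimum count at both time points, and in PPIAL4H, which entered the test only through 72 h. In translational efficiency 6 of the 7 passed. In mRNA, 1 was higher and 5 were lower, among them PPIAL4H, which was under the minimum count at 72 h. The shares called higher over all genes were 0.297% in footprints and 0.239% in translational efficiency. In mRNA they were 11.9% higher and 7.51% lower. The PPIAL4 genes share windows and are not separate observations. Over the 7 genes the footprint levels spanned 0 to 130 CPM in replicate d and 0 to 105 CPM in replicate e at 36 h, and 190 to 319 CPM and 155 to 301 CPM at 72 h. On a fold scale the members differed more at 36 h than at 72 h, when PPIAL4H was the lowest. PPIAL4H had 0 footprint counts in both 36 h libraries and 190 and 155 CPM at 72 h, which is at least 68.4-fold higher against a floor of 3 counts per library. Its mRNA was 8.16 and 9.15 CPM at 36 h and 0.151 and 0.122 CPM at 72 h, so the 2 library types went in opposite directions. PPIAL4E and PPIAL4F share a coding sequence of 492 bases, and no read from it can tell them apart. PPIAL4E nonetheless differed by 4.09 and PPIAL4F by 2.00 in footprints, and by -1.56 and -0.89 in mRNA. PPIA differed by 0.79 in footprints and passed, and 95.1% of its windows occur at another place.

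HLA-E, HLA-F and HLA-G, on chromosome 6, were called higher at 72 h in both library types. HLA class I molecules present peptides to T cells, and hg38 carries several alternate contigs of this region, so that 86.2% of the windows of the median HLA gene occur on an alternate contig. HLA-E, a ligand of natural killer cell receptors, had 16.8 and 22.9 CPM of mRNA at 36 h and 41.4 and 34.4 CPM at 72 h, and 32.3 and 35.5 CPM of footprints at 36 h and 102 and 103 CPM at 72 h. The differences were 0.93 ± 0.20 and 1.63 ± 0.18, and both passed without overlap of the libraries. Libraries did not overlap in 57.4% of all genes in mRNA and in 49.1% in footprints. HLA-F had 9.4 and 5.56 CPM of mRNA at 36 h and 16.3 and 11.8 CPM at 72 h, and its footprints went from 4.64 and 11.8 CPM to 53.6 and 53 CPM. HLA-G, known from placental trophoblast, had 0 counts in all 4 libraries of 36 h. At 72 h it had 3.44 and 2.86 CPM of mRNA, at least 28.3-fold higher, and 61.6 and 55.1 CPM of footprints, at least 23.1-fold higher, against the floor of 3 counts per library. With HLA-G at 0 in every 36 h library, and HLA-F under the minimum count in the footprints of 36 h, these could not have been called lower. Of 11 tested HLA genes, 5 were called higher in mRNA, HLA-G among them, and 4 in footprints, of which 2 were HLA-F and HLA-G. Neighbouring genes were measured too. Of the 98 tested genes between 28 and 34 Mb of chromosome 6, HLA genes included, 14 were called higher and 3 lower in mRNA, a share near the 19.4% of all genes. In footprints 8 were called, all higher, 72 had a footprint difference above 0, and the median was 0.38 in footprints and 0.13 in mRNA, beside 0.00 and 0.01 over all genes. The footprint calls include DDX39B, an RNA helicase of mRNA export, MDC1, a scaffold at DNA breaks, and TUBB, a beta tubulin. DDX39B had 398 and 362 CPM of footprints at 36 h and 670 and 677 CPM at 72 h, with differences of 0.82 ± 0.10 in footprints and 0.52 ± 0.14 in mRNA. MDC1 differed by 0.84 ± 0.12 in footprints and by 0.62 ± 0.15 in mRNA. TUBB went from 2575 and 2490 CPM of footprints to 4007 and 4064 CPM. Interferon induces HLA genes and many others. Of the 17 tested interferon-induced genes 3 were higher and 1 lower in mRNA (23.5%), near the 19.4% of all genes. In footprints 0 passed, beside 0.316% of all genes, and the median difference was -0.22. EIF2AK2, which encodes the RNA sensor PKR, was 24.9 and 24.8 CPM in mRNA at 36 h and 33.7 and 64.8 CPM at 72 h (0.99 ± 0.19), with a footprint difference of -0.08. PARP14 and HERC5 were the other higher members, and STAT2, a transcription factor of the interferon response, differed by -0.98 ± 0.23.

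**Figure D3:**
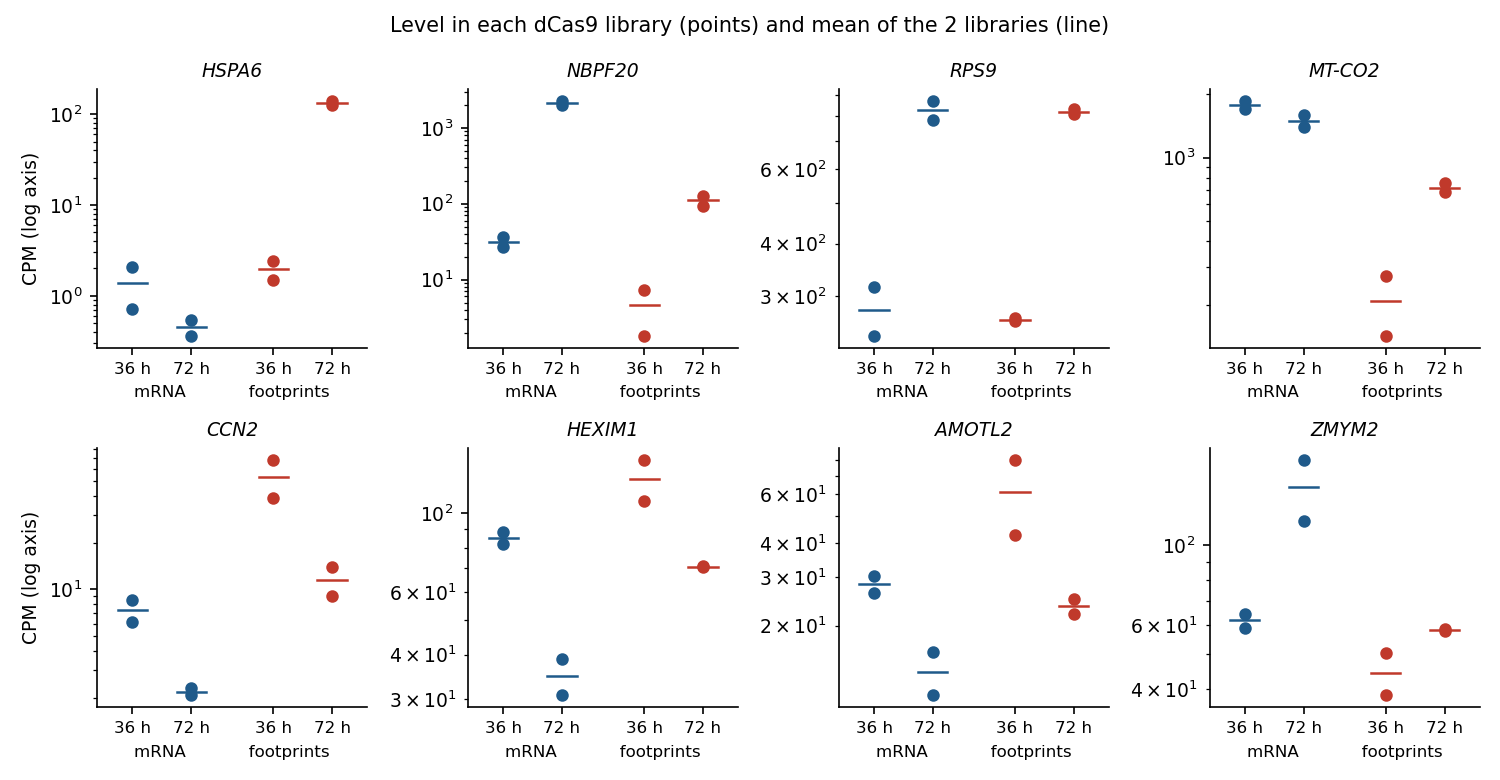
Levels of single genes in each of the 8 dCas9 libraries, as CPM on a log axis, with 1 point per library and mRNA and footprints apart. The footprints of HSPA6 are at 1.48 and 2.42 CPM at 36 h and at 127 and 141 CPM at 72 h, while its mRNA stays at or under 2.07 CPM.

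Among called genes of at least 5 CPM at 72 h, the 5 with the largest mRNA increase all belonged to the NBPF and NPIP families, whose members arose by recent segmental duplication and carry repeats of their own coding sequence. NBPF20 had 36.3 and 27.1 CPM of mRNA at 36 h and 2019 and 2270 CPM at 72 h, and 1.82 and 7.4 CPM of footprints at 36 h and 93.7 and 127 CPM at 72 h. The differences were 6.08 ± 0.18 and 5.38 ± 0.48, and its windows occur at a median of 64 places. NBPF10 went from 90.4 and 72.2 CPM to 1388 and 1560 CPM in mRNA and from 11.3 and 26.6 CPM to 50.6 and 74.3 CPM in footprints, of which only the first passed. Both library types were higher at 72 h in these genes. In mRNA 8 of 9 tested NBPF genes were called higher, with a median of 1.87, and 4 of 4 NPIP genes, with a median of 2.50. The footprint medians were 1.13 and 1.08, and NBPF20, with under 20 footprint counts on average at 36 h, was the 1 footprint call of both families. All 6 tested RGPD genes, copies of the nuclear pore gene RANBP2, were called higher in mRNA with a median of 0.95, and 0 in footprints with a median of 0.69. The shares called higher over all genes were 11.9% in mRNA and 0.297% in footprints. Members of these families share windows and are not separate observations.

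Ribosomal protein genes, of which the human genome carries many processed copies, gave 4 footprint calls among 75 tested (5.33%), all higher. Over all genes 0.316% were called in footprints. In mRNA 4 ribosomal protein genes were higher and 3 lower (9.33%), beside 19.4% called of all genes. RPS26 had 114 and 136 CPM of mRNA at 36 h and 385 and 308 CPM at 72 h, and 159 and 182 CPM of footprints at 36 h and 456 and 445 CPM at 72 h. RPL21 rose by 1.70 ± 0.14 in mRNA and by 1.86 ± 0.16 in footprints. Neither gene showed a difference in translational efficiency (-0.07 and 0.12). RPS9, which the study's list of ribosomal proteins leaves out, had 242 and 316 CPM of mRNA at 36 h and 870 and 783 CPM at 72 h, and 262 and 266 CPM of footprints at 36 h and 809 and 830 CPM at 72 h. It is listed here after its values were seen. RPS16 behaved otherwise: its mRNA was 1146 and 1313 CPM at 36 h and 263 and 406 CPM at 72 h (-1.88 ± 0.14), and its footprints were 724 and 864 CPM at 36 h and 844 and 866 CPM at 72 h, so its translational efficiency differed by 1.97 ± 0.25. All windows of RPS26 and RPL21 occur at another place, and 35.0% of those of RPS16. RPS9, RPS26 and RPL21 thus rose in both library types, and RPS16 fell in mRNA alone.

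Of the genes the study followed, RPS27A, which encodes a ubiquitin fused to a ribosomal protein of the small subunit, did not pass in either type. Its mRNA was 1015 and 1222 CPM at 36 h and 1220 and 1268 CPM at 72 h, and its footprints were 462 and 442 CPM at 36 h and 558 and 493 CPM at 72 h. The ubiquitin gene UBB had 4809 and 5252 CPM of footprints at 36 h and 3383 and 3414 CPM at 72 h, a difference of -0.56 ± 0.08 (edgeR adjusted p = 0.0813), with an mRNA difference of 0.03. With median-ratio size factors this UBB call was lost. RPS10 rose in footprints from 761 and 686 CPM to 1335 and 1302 CPM (0.86 ± 0.09), with an mRNA difference of 0.12. All windows of RPS10 and 73.6% of those of UBB occur at another place. RPS10-NUDT3, a readthrough of RPS10, had 3763 and 458 footprint counts at 36 h and no counted part at 72 h. Its part in the RPS10 difference was not tested. PRKDC, the catalytic subunit of the DNA-dependent protein kinase, rose in mRNA by 0.59 ± 0.14, with 0.64 ± 0.10 in footprints, which did not pass. Of the 15 tested genes of this list, 2 were higher and 1 lower in mRNA (20.0%), and 1 higher and 1 lower in footprints (13.3%). Over all genes 19.4% were called in mRNA and 0.316% in footprints.

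Genes called in both types in the same direction without being of a duplicated family by name were few. HMGN2, a nucleosome-binding protein with many processed copies, had 234 and 278 CPM of mRNA at 36 h and 398 and 365 CPM at 72 h, and 147 and 164 CPM of footprints at 36 h and 486 and 436 CPM at 72 h. SUMO2, a ubiquitin-like modifier, differed by 1.03 ± 0.14 in mRNA and 1.19 ± 0.17 in footprints. HNRNPA1, a splicing regulator whose mRNA starts with a 5′ terminal oligopyrimidine (TOP) tract, differed by 0.56 ± 0.14 and 0.73 ± 0.09. In each of the 3, at least 87.2% of the windows occur at another place. DDX39B and MDC1, given above, were also called higher in both types. Of their windows 5.3% and 5.26% occur at another place, and 86.2% and 96.0% on an alternate contig. The only genes called lower in footprints were UBB and EIF5AL1, a copy of the translation factor gene EIF5A, which had 1246 and 1522 CPM of footprints at 36 h and 698 and 661 CPM at 72 h, with an mRNA difference of -0.31 that did not pass.

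Genes of the mitochondrial DNA are translated by mitochondrial ribosomes inside the organelle. Of its 13 protein genes 5 could be tested, of which 3 were called higher in translational efficiency and 1 in footprints. MT-CO2, a core subunit of cytochrome oxidase, had 142 and 272 CPM of footprints at 36 h and 755 and 685 CPM at 72 h, beside 1861 and 1699 CPM of mRNA at 36 h and 1403 and 1588 CPM at 72 h. Its translational efficiency differed by 2.14 ± 0.29 (edgeR adjusted p = 0.00442). MT-ATP6, of ATP synthase, had 51.1 and 105 CPM of footprints at 36 h and 289 and 247 CPM at 72 h, and its mRNA fell by 0.40 on the log2 scale. MT-ND4L, of complex I, was the member that passed in footprints alone as well, from 14.3 and 10.4 CPM to 77.1 and 70.3 CPM. In all 3 the footprint levels did not overlap between the time points, as in 49.1% of all genes. These are the 3 called in translational efficiency. The median over the 5 genes was 1.96 in footprints and 0.23 in mRNA, beside 0.00 and 0.01 over all genes. The mRNA median turned to -0.19 with the dependence on GC content removed and was -0.37 in the Cas9 libraries, while the footprint median was 1.84 with that dependence removed and 2.68 in the Cas9 libraries. MT-ND5 was higher in mRNA by 1.24 ± 0.15, and MT-ATP8 went from 10.5 and 28.1 CPM of footprints to 101 and 95.8 CPM without passing. Their nuclear partners did not follow: of 78 tested nuclear genes of the respiratory chain 0 passed in footprints, with a median of 0.09. In mRNA 2 were higher and 9 lower (14.1%). Of 77 genes of mitochondrial ribosomal proteins 6 were higher and 10 lower in mRNA (20.8%), with 0 in footprints and a median of -0.05. Over all genes 19.4% were called in mRNA and 0.316% each in footprints and translational efficiency. Between 17.0% and 64.6% of the windows of these 5 genes occur at another place, as nuclear copies of mitochondrial DNA do, and their part in the result was not tested.

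Beyond the shared sequences, the mRNA differences followed base composition. Across 10419 genes, Spearman's rho between the GC content of the coding sequence and the difference was -0.58 in mRNA, -0.30 in footprints and 0.18 in translational efficiency, and in the Cas9 libraries it was -0.63, -0.37 and 0.14. In 5 groups of equal size by GC content, the lowest group (32.6% to 43.6%) had a median mRNA difference of 0.36, with 769 genes called higher and 15 lower. In the highest group (60.5% to 79.7%) the median was -0.23, with 25 called higher and 360 lower. The footprint medians of the same groups were 0.20 and -0.21. When the dependence on GC content was removed by a smooth curve, 698 genes were called in mRNA, 315 higher and 383 lower, in place of 1240 and 784, and 541 of the 2024 calls were kept in the same direction.

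**Figure D4:**
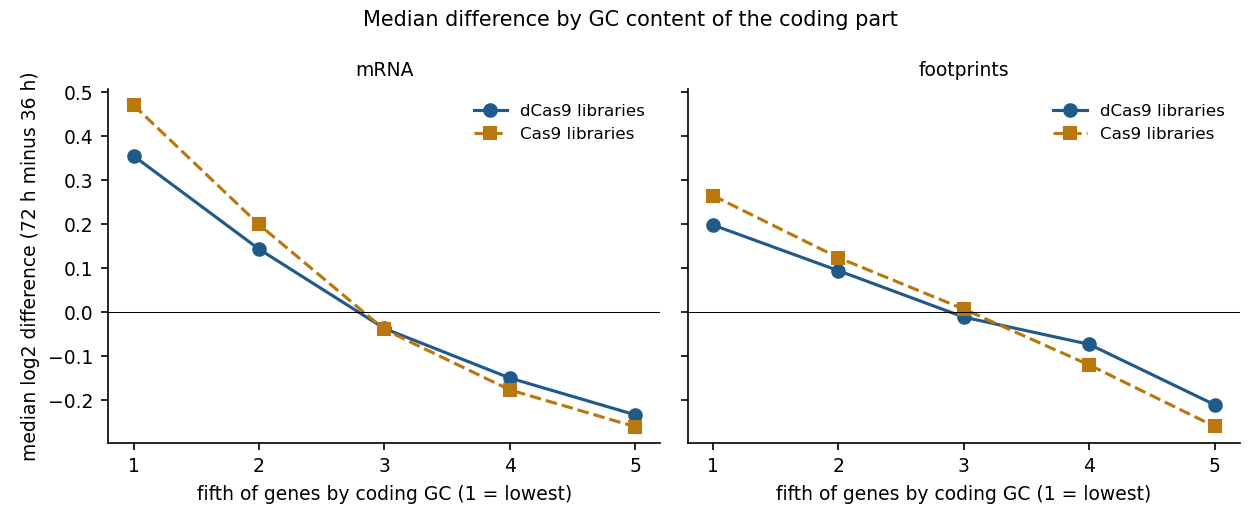
Median log2 difference (72 h minus 36 h, y axis) in 5 equal groups of genes by GC content of the coding sequence (x axis, 1 the lowest), for the dCas9 and the Cas9 libraries, with mRNA on the left and footprints on the right. In dCas9 mRNA the median goes from 0.36 in the lowest to -0.23 in the highest group.

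Genes of mitosis were higher in mRNA at 72 h where they passed. Of 24 tested G2/M genes 7 were higher and 0 lower, beside 11.9% higher and 7.51% lower over all genes, with a median of 0.18 in both library types and 0 calls in footprints. MKI67, the Ki-67 antigen, had 479 and 420 CPM of mRNA at 36 h and 736 and 837 CPM at 72 h (0.81 ± 0.14), and TOP2A, the mitotic topoisomerase, had 640 and 601 CPM at 36 h and 796 and 1180 CPM at 72 h. CDK1 rose from 127 and 114 CPM to 160 and 206 CPM. With the GC dependence removed, 1 gene of this list was called. Of 26 G1/S genes 3 were higher and 2 lower in mRNA (19.2%), near the 19.4% of all genes. Among them were PCNA, the replication clamp (0.55 ± 0.14), and UHRF1, which maintains DNA methylation (-0.50 ± 0.14). The replication-dependent histone genes, of which 60 were tested, gave 8 higher and 1 lower, and with the GC dependence removed 16 higher and 0 lower. H2BC6 had 198 and 207 CPM of mRNA at 36 h and 545 and 472 CPM at 72 h, while its footprints were 1384 and 1471 CPM at 36 h and 1889 and 2035 CPM at 72 h, so its translational efficiency differed by -0.89 ± 0.15. H2BC10 rose by 1.48 ± 0.17 in mRNA. Histone genes are near-identical to each other in part, and 43.0% of the H2BC6 windows occur at another place. The 39 tested genes of the study's list for the repair of double-strand breaks (DSBs) had 10 higher and 3 lower in mRNA (33.3%). Their medians were 0.18 in mRNA and 0.21 in footprints, and with GC removed 2 were higher and 1 lower.

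Most of the called stress genes were lower in mRNA at 72 h. Of 23 tested p53 targets 7 were lower and 1 higher, beside 7.51% and 11.9% of all genes, with medians of -0.27 in mRNA and -0.39 in footprints. BAX, a pore former of apoptosis, had 96.7 and 111 CPM at 36 h and 64.1 and 57.4 CPM at 72 h (-0.78 ± 0.16), DDB2, a damage sensor for ultraviolet lesions, differed by -0.75 ± 0.21, and CCNG1 was the member that rose. With the GC dependence removed 3 of these genes were called, all lower. Of 14 immediate early genes, which respond to serum within minutes, 6 were lower and 0 higher, with a median of -0.45, and 1 was lower with GC removed. IER5 went from 50 and 39.7 CPM to 30 and 26.9 CPM and JUN from 156 and 145 CPM to 121 and 108 CPM. Targets of YAP and TEAD, regulators of transcription, had 4 lower and 1 higher of 12 tested. Their medians were -0.33 in mRNA and -0.57 in footprints, and with GC removed 2 were lower and 0 higher. CCN2, a matricellular protein and the classical target of YAP, had 6.17 and 8.59 CPM of mRNA at 36 h and 2.30 and 2.08 CPM at 72 h, and 38.5 and 68.1 CPM of footprints at 36 h and 9.08 and 13.9 CPM at 72 h. The mRNA difference was -1.76 ± 0.40 (edgeR adjusted p = 0.000452) and the footprint difference -2.12 ± 0.40, which did not pass although the libraries did not overlap, as in 5126 genes (49.1%). AMOTL2, another target, had 26.3 and 30.3 CPM of mRNA at 36 h and 16 and 11.2 CPM at 72 h, and 42.6 and 79.9 CPM of footprints at 36 h and 22 and 25.1 CPM at 72 h. Both genes share under 1% of their windows, and in the mRNA of Cas9 cells their differences were -1.56 and -0.74.

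Genes of the unfolded protein response, which relieves misfolding in the endoplasmic reticulum, had 5 lower and 0 higher of 18 tested in mRNA (27.8%). With GC removed 3 were lower. Over all tested genes 19.4% were called in mRNA, 11.9% higher and 7.51% lower. Among the 5 was the chaperone HSPA5, with 367 and 363 CPM at 36 h and 207 and 299 CPM at 72 h. Its footprint difference was -0.13. ATF4 drives amino acid genes when translation initiation is restrained. Of 31 of its targets 4 were higher and 7 lower in mRNA (35.5%), so that the list did not move one way. The amino acid transporter SLC38A2 rose by 0.80 ± 0.16 and SLC7A11, the cystine transporter, by 1.33 ± 0.37. In SLC7A11 the 36 h replicates lay far apart, at 5.26 and 0.966 CPM, beside 7.94 and 7.55 CPM at 72 h. CEBPB, a transcription factor, fell by 1.19 on the log2 scale and ATF3 fell by 0.68. The study's own list of targets of the integrated stress response had 5 higher and 1 lower of 31 (19.4%). That is the share of all tested genes, and with GC removed 1 was called, as higher. Genes of nucleolar ribosome biogenesis had 2 higher and 6 lower of 24 (33.3%). TOP mRNAs had 5 higher and 1 lower of 15 (40.0%), and among them HNRNPA1 was the footprint call. Cholesterol synthesis had 6 higher and 1 lower of 23 (30.4%). With GC removed 1 gene of the list was called. Glycolysis (1 of 19 higher), hypoxia targets (1 of 15 higher), proteasome subunits (3 of 31 lower) and lysosome genes (1 of 20 lower) gave few calls. In footprints 0 genes of all of these lists passed except HNRNPA1 (edgeR), beside 0.316% of all genes. Over all tested genes 1021 (9.78%) had an unadjusted p under 0.05 in footprints, and DESeq2 called 173.

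**Figure D5:**
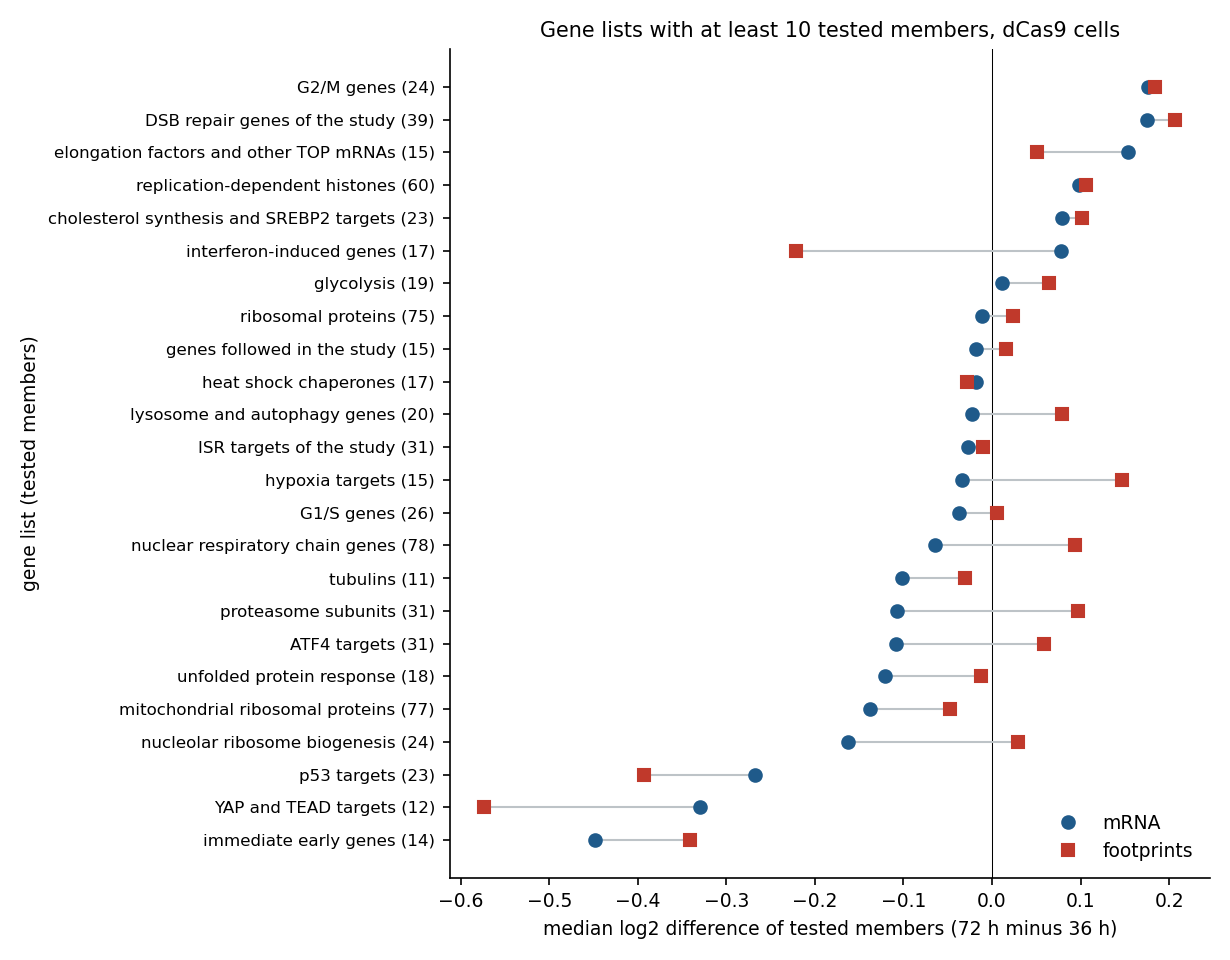
Median log2 difference (72 h minus 36 h, x axis) of the tested members of gene lists in dCas9 mRNA and footprints, with the number tested beside each name. Only lists with 11 or more tested members are drawn, so the mitochondrial DNA genes, with 5 tested, are left out. The immediate early genes (-0.45) and the YAP and TEAD targets (-0.33) lie lowest in mRNA.

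To see which mRNA differences stood apart from both shared sequence and GC content, the genes with under 1% shared windows that were called with and without the GC correction, had the same counted part in both file sets and reached 5 CPM of mRNA at the higher time point were collected. This rule was chosen after the values were seen. It gave 151 higher genes, of which 114 had the same sign in footprints and 138 in the mRNA of Cas9 cells, and 155 lower genes, of which 124 and 153 did. Of all 2024 mRNA calls, 75.7% had the same sign in footprints and 97.1% in the mRNA of Cas9 cells. Among the higher were PTPN12, a tyrosine phosphatase of adhesion sites, with 8.04 and 3.73 CPM at 36 h and 14.2 and 27.9 CPM at 72 h, and HOOK1, a dynein adaptor, with 6.49 and 6.76 CPM at 36 h and 16.4 and 27.1 CPM at 72 h. The footprints of HOOK1 were 20.6 and 14.8 CPM at 36 h and 30.3 and 22.8 CPM at 72 h. ZMYM2, a zinc finger protein of transcriptional repressor complexes, was more abundant, with 64.7 and 59.2 CPM of mRNA at 36 h and 117 and 172 CPM at 72 h (1.22 ± 0.16). The replicates of PTPN12 lay about 2-fold apart at both time points, those of HOOK1 and ZMYM2 closer. Among the lower was HEXIM1, which holds the elongation factor P-TEFb inactive. HEXIM1 had 81.7 and 88.6 CPM of mRNA at 36 h and 30.8 and 39.0 CPM at 72 h, and 108 and 141 CPM of footprints at 36 h and 70.8 and 70.4 CPM at 72 h. CCDC85B went from 40.9 and 52.4 CPM to 20.6 and 20.5 CPM. In both genes the mRNA replicates lay close together and the time points did not overlap, as in 57.4% of all genes.

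Of the 6 calls in translational efficiency with under 1% of their windows at another place, 2 were higher and 4 lower at 72 h. SAMD10 had 2.22 and 0 CPM of footprints at 36 h and 129 and 640 CPM at 72 h. Its mRNA was at 3.19 CPM or less in every library, and its footprints averaged under 20 counts at 36 h. SAMD10 thus entered the test only through its 72 h footprints. ZFHX3, a large zinc finger and homeobox factor, had 116 and 404 CPM of footprints at 36 h and 26.5 and 29.9 CPM at 72 h, and 25.3 and 21.3 CPM of mRNA at 36 h and 34.2 and 34.6 CPM at 72 h. In each of these the 2 footprint libraries of a time point differed more than 3-fold. TET3, a dioxygenase that oxidises methylated cytosine, went from 40.4 and 51.8 CPM of footprints to 19.4 and 21.4 CPM. AKAP12, an anchor of protein kinase A, went from 275 and 318 CPM to 194 and 209 CPM, with 372 and 332 CPM of mRNA at 36 h and 436 and 447 CPM at 72 h. WBP2, a coactivator that binds YAP, had 49.1 and 52.6 CPM of mRNA at 36 h and 31.0 and 25.5 CPM at 72 h, and 80.1 and 59.2 CPM of footprints at 36 h and 102 and 103 CPM at 72 h. The other call was ENSG00000273734, which the reference names by its identifier alone (-1.56 ± 0.3). It overlaps other genes at the same place, with 60.1% of its windows in SPPL2B and 32.4% in OAZ1, so its reads are not separate from theirs. The mean footprints of SPPL2B went from 30.8 to 16.6 CPM and those of OAZ1 from 401 to 215 CPM. In the Cas9 libraries the difference in translational efficiency was 0.27 for TET3, -0.31 for AKAP12 and 1.83 for WBP2.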

How the data were processed

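Counts were deposited by the authors as whole numbers for each transcript, summed over the coding sequence less its ends, from 50-base single reads of rRNA-depleted total RNA and of RNase I footprints. Transcripts of a gene with the same coding part hold equal counts, so a read was counted on each of them. Per the labels, reads were aligned with HISAT2 2.1.0 to GRCh38, whereas the study's methods name tophat and GENCODE 25 at 72 h. Of 26679 transcripts listed at 36 h, 26238 were also listed at 72 h, 25682 had a counted part at both and 24697 were matched to GENCODE 44, giving 18944 genes, each by 1 transcript. The counted part was 1 codon longer at 72 h in 25629 transcripts and of equal length in 2, so same length was read as this offset. Genes averaging under 20 counts over the 4 mRNA or the 4 footprint libraries were left out, which left 10444. Tests used edgeR 4.0.16 (R 4.3.3) with TMM factors and a false discovery rate of 0.1. Translational efficiency was the interaction of time and library type. DESeq2 1.42.0, limma 3.58.1 (voom), other filters, scalings and transcripts were tried, and leaving out each library. On simulated data edgeR recovered 82% of 200 genes changed by 1 (log2) in mRNA and 24.5% in footprints, and 79.5% of those changed by 2 in footprints.

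Members and lists were chosen with earlier results of these data known. Named genes were up to 8 higher and 8 lower called in both types without overlap (ranked by the smaller difference, at least 5 CPM, no histone or ribosomal protein gene), 5 higher and 5 lower per library type and in translational efficiency, and up to 5 per list. RPS9, PPIA, HSPA1A, HSPA1L, HSPA2, ACTA2, EIF1, WBP2, SAMD10, RPL7A, MT1A, EIF5A, TUBB8, PPIAL4A, PPIAL4C, PPIAL4F, AKAP12 and the genes with under 1% shared windows were named after their values were seen. Windows of 30 bases were searched in the hg38 genome and its alternate contigs, with GENCODE 44 coding sequences, and the printed sequences come from that build. Because the methods divide each lysate between both library types, letters d and e may mark a shared lysate at 36 h, where deviations of libraries of the same letter correlated by 0.0208 across genes. At 72 h the letters of the library types differ. Some named genes are not reported here.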

Additional observations from a re-analysis of the deposited data

Results flagged for a closer look

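In 28 named genes, of the 33 called, the difference between the time points was not the same in footprints as in mRNA, by the test of the interaction (edgeR, adjusted p over 10444 genes). Footprints were higher at 72 h relative to mRNA in PPIAL4H (adjusted p = 3.75e-08), POTEF (3.72e-06), PPIAL4E (1.64e-05), PPIAL4D (0.000107), HSPA6 (0.000109), ACTA2 (0.000182), PPIAL4F (0.000186), HSPA2 (0.000298), PPIAL4A (0.000368) and PPIAL4G (0.000542), all members of families of related genes, though ACTA2 and HSPA2 have only 2.03% and 1.59% of their windows at another place. The same held for the ribosomal protein gene RPS16 (0.00233), for MT-CO2 (0.00442), MT-ATP6 (0.0128) and MT-ND4L (0.0381) of the mitochondrial DNA, for ENSG00000273269 (0.00665), a locus known by its identifier alone, and for SAMD10 (0.0105), NDUFAF8 (0.0107), HMGN2 (0.0693), WBP2 (0.0887) and EIF1 (0.0887). PPIAL4H, HSPA6, ENSG00000273269 and SAMD10 averaged under 20 footprint counts at 36 h and entered the test only through their 72 h footprints. The direction of their footprint difference was thus set by the filter. In EIF1, a translation initiation factor, footprints were 176 and 173 CPM at 36 h and 190 and 180 CPM at 72 h, while mRNA went from 70.5 and 77.0 CPM to 31.7 and 39.7 CPM. NDUFAF8, an assembly factor of complex I, had 33.6 and 32.5 CPM of mRNA at 36 h and 9.63 and 6.99 CPM at 72 h, and 22.2 and 22.2 CPM of footprints at 36 h and 30.8 and 30 CPM at 72 h.

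Footprints were lower relative to mRNA in ZFHX3 (0.0121), NPIPB5 (0.0251), H2BC6 (0.0357), NBPF10 (0.0687), ENSG00000273734 (0.0693), AKAP12 (0.0887), TET3 (0.0887) and MT1A (0.0963). MT1A, a metallothionein, had 0 mRNA counts in both 36 h libraries and 2.84 and 1.69 CPM at 72 h. That is at least 20.3-fold higher against a floor of 3 counts per library. In mRNA MT1A entered the test only through 72 h, so there it could be called only as higher.

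Some transcripts with many reads at 36 h have no counted part at 72 h, so no comparison uses them. In mRNA replicate d at 36 h these include MT-CO1 with 204369 counts, MT-CO3 with 103867 and RPS10-NUDT3, a readthrough of RPS10, with 38054. All 3 are listed at 0 in each dCas9 library of 72 h.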

How the results depend on the processing

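The 36 h footprint libraries limit the footprint and translational efficiency results, and 2 libraries per group limit all of them. The mRNA count of 2024 became 1335 with filterByExpr, 698 with GC dependence removed, 391 with both library types in 1 fit and 1278 over the genes with under 1% shared windows alone (an alternative added after seeing the data). Leaving out single libraries gave 359 (without replicate b of 72 h) to 2467 (without replicate a of 72 h), and 735 without replicate e of 36 h. In every such fit the lone library is assumed to vary like the others. The 33 footprint calls became 173 with DESeq2, 173 with every gene of any count, 57 with filterByExpr, 115 with Cas9 libraries in the fit, 204 in 1 fit and 0 over the genes with under 1% shared windows (578 at an unadjusted p under 0.05). Without a 36 h footprint library they were 4542 (replicate d) and 3060 (replicate e), and without a 72 h one 27 (e) and 29 (f). Genes with under 1% shared windows made up 0 of the 33 calls, 52 of the 173 of DESeq2, 89 of the 204 in 1 fit and 3023 of the 4542 without replicate d. The 33 calls in translational efficiency became 130 with DESeq2, 140 with every gene of any count, 155 with Cas9 libraries, 137 with voom, 2 over genes with under 1% shared windows and 14 (without footprint replicate e of 72 h) to 2105 (without d of 36 h), with 456 without e of 36 h, 17 without f of 72 h, and 19 and 21 without mRNA replicates e of 36 h and a of 72 h. With the replicate letter of 36 h, which may mark a shared lysate, as a block there were 26 calls in translational efficiency, 25 of them among the 33. Of the named genes AKAP12 (edgeR adjusted p = 0.141), EIF1 (0.146), WBP2 (0.146), NBPF10 (0.158), TET3 (0.158) and MT1A (0.193) were then not called. No other block could be fitted because mRNA and footprint libraries of 72 h carry different letters. The 14 genes called in both types became 64 (DESeq2), 65 (any count), 52 (Cas9 libraries), 45 (1 fit), 0 (under 1% shared windows) and 8 to 888 on leaving out libraries, with 9 without mRNA replicate e of 36 h or footprint replicate f of 72 h, 8 without footprint replicate e of 72 h, 888 without footprint replicate d and 592 without e of 36 h. The cause of these changes was not tested beyond the number of libraries and genes.

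With GC dependence removed, which for the lists was added after seeing the data, mRNA calls became 1 for cholesterol synthesis, 16 for histones, 2 for G1/S, 1 for G2/M, 3 for p53 targets, 3 for ATF4 targets, 3 for the unfolded protein response, 1 for immediate early genes, 2 for YAP targets, 0 for glycolysis, 8 for mitochondrial ribosomal proteins, 1 for TOP mRNAs, 4 for nucleolar genes, 2 for lysosome genes, 1 for HEK293 markers, 1 for integrated stress response targets and 3 for DSB repair genes, and footprint calls of the genes followed in the study 1 in place of 2. Median-ratio size factors gave that same 1 and 1 call in translational efficiency for the nuclear respiratory chain in place of 0. The other 66 and 82 list counts held within 1.5 times, as did all 84 with the same counted part only. JUND (0.12) and NAP1L1 (-0.037) reversed in mRNA with GC dependence removed, and the result for SC5D, mRNA, at 0.53 with all libraries, ranged from -0.0053 without replicate b of 72 h to 0.92 without replicate a. Other named mRNA calls lost significance in 164 of 1400 settings and in 211 of 587 that left out a library, and named footprint calls in 12 of 297 and 24 of 132.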

Other observations

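Promoters were scanned for short motifs of transcription factors that act on the lists above (RefSeq, 250 bases before to 50 after the start, both strands, overlaps counted once per promoter). A match is a description and not a site of binding. The interferon element (TTTC, any 2 bases, TTTC) was in 60.0% of the promoters of interferon-induced genes and in 3.65% of all 27305 promoters. It was in 2.94% of the promoters of genes called higher in mRNA at 72 h, in 2.07% of those called lower and in 2.58% of all tested genes. The E2F element (TTTCCCGC or TTTGGCGC) was in 61.9% of G1/S promoters, in 2.31% of all, in 3.97% of tested genes, in 3.72% of genes called higher and in 5.74% of those called lower. The CCAAT box, typical of G2/M genes, was in 78.9% of G2/M promoters, in 35.7% of all, in 38.2% of tested genes, and in 35.4% and 43.9% of genes called higher and lower. The ATF4 element (TGATGNAA) was in 20.7% of the promoters of ATF4 targets and in 1.27% and 1.12% of genes called higher and lower, beside 1.5% of tested genes. The hypoxia element (ACGTG) was in 46.7% of hypoxia promoters and in 28.3% and 30.6% of called genes, beside 28% of tested genes. The sterol element (TCACNCCAC) was in 0 of 17 promoters of cholesterol genes in 1.15% of all and in 1.11% of tested genes.

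In the metallothioneins, which bind zinc and copper, the list held 5 tested genes and leaves out MT1A, which is given above. MT1F and MT1M, the 2 that passed in mRNA, averaged under 20 counts at 36 h in both library types and entered the test only through 72 h, so they could be called only as higher. MT1F had 0 and 0.656 CPM of mRNA at 36 h and 1.57 and 1.32 CPM at 72 h, and 0.202 and 0 CPM of footprints at 36 h and 8 and 6.89 CPM at 72 h. MT1M had 0 and 0.483 CPM of mRNA at 36 h and 1.42 and 1.10 CPM at 72 h. Metallothionein genes are close copies of each other.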
